A study of Mus musculus with 45 samples.

Results

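Perivascular macrophages (pvMΦ) and microglia of the adult mouse brain were compared in bulk RNA, over all genes of a deposited count table. The members were the libraries labelled as these populations at P56 (8 weeks of age), 4 of pvMΦ and 5 of microglia, of 45 libraries in the series. All came from mice of strain C57BL/6J and genotype Cx3cr1GFP/wt, in which 1 allele of the fractalkine receptor gene Cx3cr1 carries GFP and the other is wild type, so the reference microglia carry it too. The mice were untreated and bred under SPF (specific pathogen free) conditions. Meningeal macrophages (mMΦ) of the same age, strain and genotype, 3 libraries, are given beside them, and the 4 pvMΦ and 5 microglia libraries of P21 serve 1 comparison across ages. The series' design gives 3 to 5 individual mice per age. The gate of the sort and the mouse behind each library were not given in the sources used here, so p-values measure the spread between these libraries.

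Microglia live in the brain parenchyma among neurons, while perivascular macrophages lie between the walls of penetrating vessels and the glial boundary of the brain. Both arise from early embryonic macrophages and depend on the growth factor receptor Csf1r. Perivascular macrophages are known for scavenger receptors and for the uptake of material from blood and interstitial fluid, and microglia for purinergic sensing of neuronal signals and for the transcription factor Sall1.

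Total counts of the 9 libraries ran from 9898257 (microglia library 2) to 23273636. The 3 libraries of batch S276, a project named in the labels (microglia 4 and 5, pvMΦ 4) had 16097 to 16295 genes with a count, and the 6 of batch S232 had 13482 to 14747. Microglia 4 and 5 were the most alike, with a Spearman rho across genes of 0.956, and all other pairs within a group lay between 0.664 and 0.853. Across the groups, pvMΦ 4 had a rho of 0.827 and 0.836 with microglia 4 and 5, which are of its batch. These values were above its rho of 0.773, 0.752 and 0.694 with pvMΦ 1 to 3. With microglia 1 to 3 it had 0.739, 0.624 and 0.675. Batch was a term of every main test. Levels are given as CPM, counts scaled to the size of each library, which compare libraries for 1 gene and not genes with each other.

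Of 11057 genes tested with edgeR, 309 (2.79%) were higher and 156 (1.41%) lower in pvMΦ at an adjusted p under 0.05, which together is 4.21%. The higher genes had a median log2 fold change of 5.95, and 166 of them differed by more than 32-fold. The lower genes had a median of -1.75, and 15 of them differed by more than 32-fold, while the median over all genes tested was -0.03. These values were the same with the genes at 0 in a group (8 higher, 5 lower) set to a floor of 3 counts. The libraries of the groups did not overlap in 294 of the 309 and in 138 of the 156, against 594 (5.37%) higher and 474 (4.29%) lower without overlap among all genes tested. Within batch S232, 3 against 3 libraries, 179 genes were higher and 74 lower. Without pvMΦ library 4, 199 genes were higher, and without microglia library 4, microglia library 5 or pvMΦ library 1 the lower genes numbered 92, 91 and 93. In bulk RNA, fewer cells of a type and less RNA per cell cannot be told apart.

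**Figure D1:**
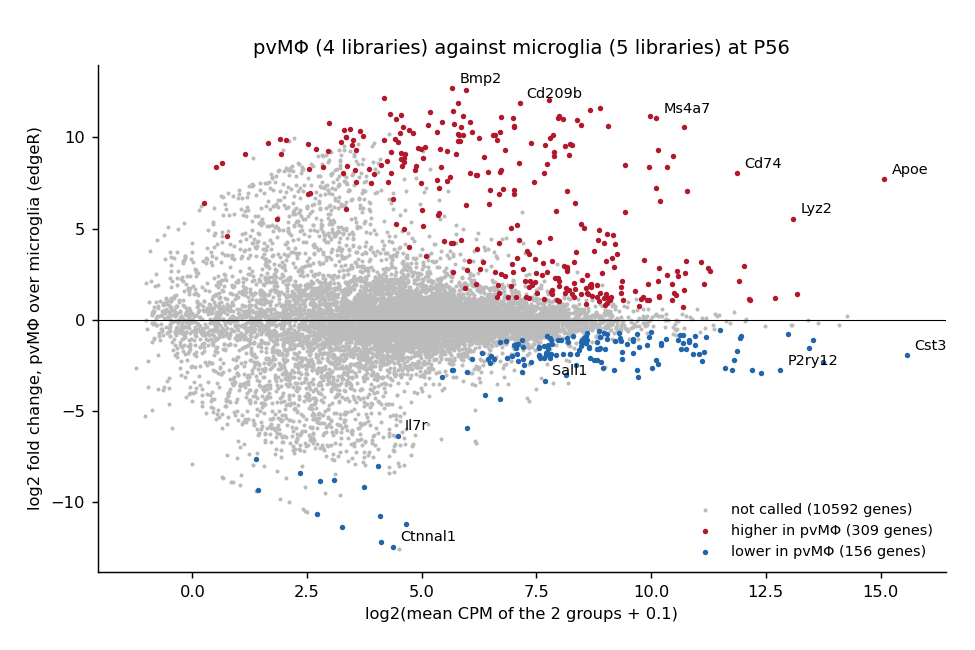
Log2 fold change of each gene tested (vertical axis) against its mean level (horizontal axis, log2 of the mean CPM of both groups + 0.1), with genes called higher in red and lower in blue. The 309 higher genes have a median of 5.95 and the 156 lower ones of -1.75, and fold changes of genes without counts in a group depend on the prior count of the fit.

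The labels were set beside lists of markers. Members of the lists were chosen with earlier results of these data known, so their counts are no independent check. Of 30 border macrophage markers, all tested, 28 were higher in pvMΦ and 2 were not called, with a median log2 fold change of 8.45 against -0.03 over all genes. Ms4a7, a membrane protein of border macrophages, was at 2678, 1871, 3025 and 1259 CPM in pvMΦ libraries 1 to 4 and at 1.05 ± 0.724 (mean ± SD) in the 5 microglia libraries (log2 fold change 11.05 ± 0.38, SE, adjusted p = 1.1e-06). Cbr2, a carbonyl reductase, was at 2072, 1568, 3459 and 961 against 0.228, 1.57, 0.469, 0.749 and 1.54 CPM in microglia libraries 1 to 5 (11.15 ± 0.75). The groups are far apart in both genes. Cd163, the haemoglobin scavenger receptor, was at 583, 341, 471 and 1296 against 0.228, 0, 0.26, 0.449 and 1.37 CPM (10.95 ± 0.59), with pvMΦ library 4 the highest. The members not called were Maf, a transcription factor (722 ± 274 against 458 ± 147 CPM, adjusted p = 0.28), and Fcrls, an Fc receptor-like gene (5076 ± 870.2 against 6434 ± 1350.0, adjusted p = 0.47). F13a1, a chain of clotting factor XIII, was at 2006, 2060.3, 2001 and 2682 against 1.2, 81.6, 1.09, 4.04 and 5.37 CPM, and lost its call without microglia library 4, microglia library 5 or pvMΦ library 4 (highest adjusted p = 0.11, edgeR). Markers of this list summed to 74046 to 133311 CPM in pvMΦ, 6517 to 9893 in microglia and 102752 to 118423 in mMΦ. The pvMΦ sum came mainly from Apoe. The microglia sum came mainly from Fcrls, which stands also on the list of microglia markers.

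Of 28 microglia markers, 19 were lower in pvMΦ and 9 were not called, with a median log2 fold change of -2.65. The genes were lower, yet all 28 had counts in pvMΦ. Over the 19 called markers, the pvMΦ mean was 1.15 to 51.7% of the microglia mean, with a median of 15.7%, where the median of the mMΦ means was 5.35%. By library the median share was 12.3, 20.1, 11.5 and 20.9% in pvMΦ 1 to 4, and 4.54, 6.28 and 4.39% in mMΦ 1 to 3. Sparc, a matricellular glycoprotein, stood at 11.6, 20.1, 5.71 and 14.2% of the microglia mean in pvMΦ 1 to 4, and the purinergic receptor gene P2ry12 at 11.6, 18, 6.97 and 19.1%. Library 3 was lowest in both. Csf1r, the receptor that keeps both cell types alive, was the least reduced, at 39.7, 37.6, 43.1 and 86.2%. Summed over the 28 markers, the level was 38268 to 55359 CPM in pvMΦ, 146413 to 211492 in microglia and 24047 to 28173 in mMΦ. Whether microglia among the sorted pvMΦ had a part in these levels was not tested.

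**Figure D2:**
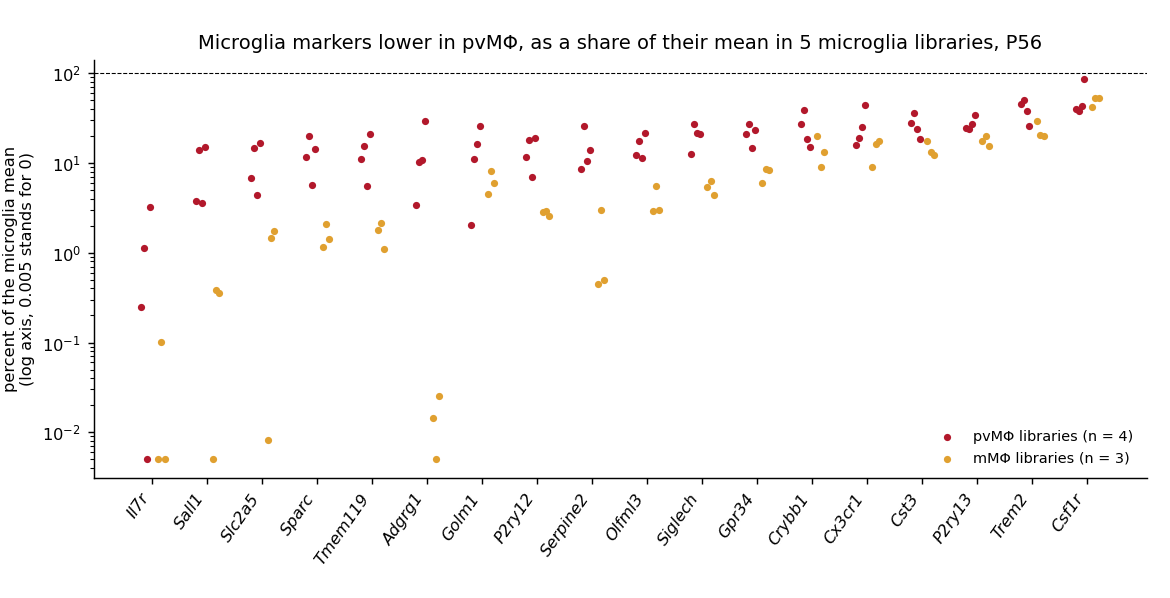
Level of 18 of the 19 microglia markers called lower in pvMΦ, as percent of their mean in the 5 microglia libraries (log axis, 0.005 stands for 0), 1 point per pvMΦ (red) or mMΦ (yellow) library. Over all 19, the pvMΦ means have a median of 15.7% and the mMΦ means of 5.35%, and Csf1r lies nearest to the microglia level.

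The largest fold changes toward pvMΦ were in genes nearly without counts in microglia. Timd4, which encodes the phosphatidylserine receptor TIM-4, was at 146, 86.3, 187 and 79 CPM in pvMΦ 1 to 4. In microglia it had 1 count in all 5 libraries together, which gives a ratio of 9590.2 with a 95% counting interval of 1721 to 378839. Bmp2, a secreted bone morphogenetic protein, was at 76.1, 64.9, 111 and 154 CPM against 1 count in microglia, a ratio of 8572 (1538 to 338638), and both genes passed the test (edgeR, adjusted p = 1.1e-04 for Timd4 and 8.7e-05 for Bmp2). Foxred2, a flavoprotein of the endoplasmic reticulum, was at 62.8, 41.7, 12.5 and 26 CPM in pvMΦ and had no count in microglia, so it was at least 1026-fold higher, against a floor of 3 counts over the group. These floors and intervals cover counting error only. The formyl peptide receptor gene Fpr1 (ratio 4439.8, 1229 to 36668), the cytokine gene Il10 (2749, 761 to 22707), the interferon-inducible Ifi211 (3140.3, 563 to 124081) and Plbd1 (2197, 608 to 18150.4) had 1 or 2 counts in microglia. Plbd1 varied the most among pvMΦ of these, at 17, 72, 4.19 and 93.6 CPM. Foxred2 lost its call without pvMΦ library 1, 2 or 4 (edgeR, highest adjusted p = 0.095) and Plbd1 without microglia library 5 or pvMΦ library 4 (0.11). The other 10 of the 12 higher genes with the largest fold changes kept theirs without each library in turn. With the replicate number as a block Bmp2, Il10, Ifi211, Foxred2 and Plbd1 lost their calls, and within batch S232 Ifi211, Foxred2 and Plbd1 did.

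Cd209a, Cd209b, Wfdc17, Clec4n and Pgap6 completed these 12. The lectin genes Cd209a and Cd209b were at 531, 688, 426 and 109.9 and at 423, 278, 353 and 65.6 CPM in pvMΦ, against 0 to 0.15 and 0 to 0.121 in microglia. Their log2 fold changes were 12.06 ± 0.77 and 11.88 ± 0.56, and library 4 was the lowest pvMΦ library in both. Clec4n, which encodes the lectin Dectin-2, was at 1158, 564, 1043 and 480.2 CPM against 0.121 to 0.599 (11.48 ± 0.59, adjusted p = 8.6e-06), and Wfdc17, a secreted protein with a whey acidic protein domain, at 950.5 ± 363 against 0.485 ± 0.574 CPM. The Cd209, Clec4, Ms4a, Ifi20 and H2 genes are families of similar copies, and the library kit does not mark strand, so reads of similar or overlapping genes could be split or shared, depending on how the authors counted.

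**Figure D3:**
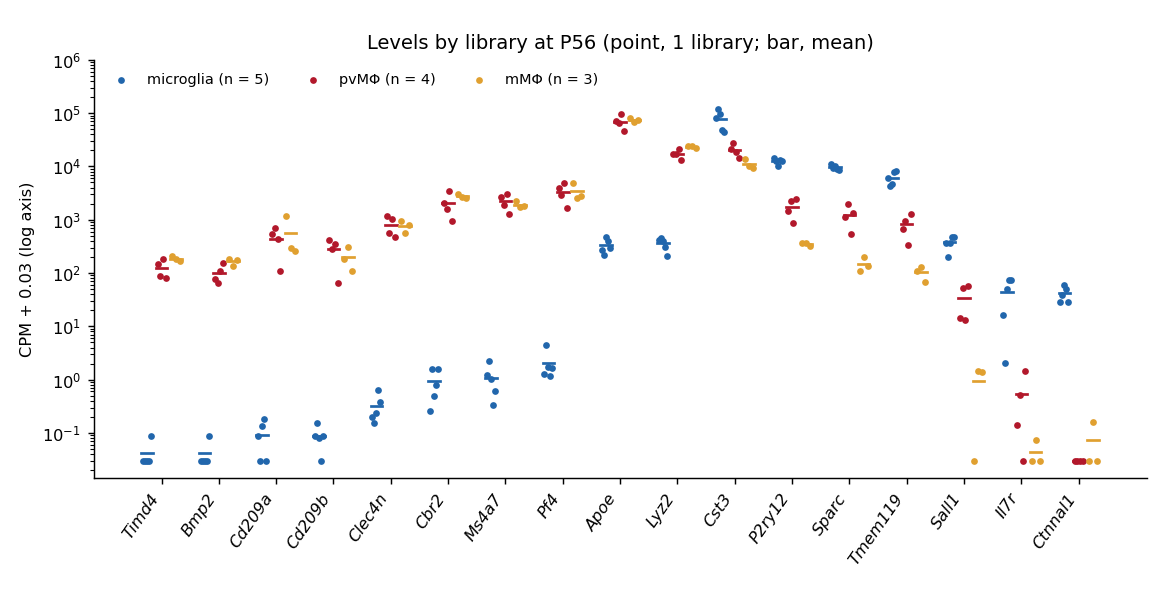
Level of 17 genes in each library (CPM + 0.03, log axis), for microglia (blue, n = 5), pvMΦ (red, n = 4) and mMΦ (yellow, n = 3), with bars at the group means. In each gene the pvMΦ points lie apart from the microglia points, which was a condition for naming most of them. Apoe is at 46062 CPM or more in pvMΦ and at 465 or less in microglia.

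By difference in CPM, Apoe led toward pvMΦ. It encodes apolipoprotein E, the main lipid carrier of the brain, and was at 70049, 64897, 94889 and 46062 CPM in pvMΦ and 266, 214, 465, 406 and 298 in microglia (log2 fold change 7.70 ± 0.34, adjusted p = 3.0e-06). Lyz2, the lysozyme gene of myeloid cells, was at 17049.6, 16766, 21362 and 13230.1 against 417, 463, 404, 312 and 212 CPM (5.54 ± 0.16, adjusted p = 4.0e-07). Neither gene overlapped between the groups, which was a condition for being named here. Ctsb, Cd74, Fos, Ctsc, Btg2, Cd14, H2-Ab1 and Dusp1 followed, and all 10 kept their calls without each library in turn. Cd14, a co-receptor for bacterial lipopolysaccharide, was at 4271 ± 1039 against 701 ± 79.2 CPM.

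Promoter sequence is shown for the 3 genes per direction with the largest difference in CPM that had a single RefSeq window (build GRCm38.p6). Genes on a chromosome that is not printed here were passed over. The 250 bases before the start of transcription are given 5′ to 3′ on the gene's strand. Capitals mark GAGGAA or GGAAGT on either strand, core letters of sites bound by PU.1, a factor that both cell types express. The windows are chr10:117282273-117282522 (- strand) for Lyz2, chr12:85473640-85473889 (+ strand) for Fos, chr7:88277835-88278084 (+ strand) for Ctsc, chr2:148875513-148875762 (- strand) for Cst3, chr7:142387828-142388077 (- strand) for Ctsd and chr3:59262986-59263235 (- strand) for P2ry12. Lyz2, Fos and Ctsc were higher in pvMΦ and Cst3, Ctsd and P2ry12 lower.
Lyz2: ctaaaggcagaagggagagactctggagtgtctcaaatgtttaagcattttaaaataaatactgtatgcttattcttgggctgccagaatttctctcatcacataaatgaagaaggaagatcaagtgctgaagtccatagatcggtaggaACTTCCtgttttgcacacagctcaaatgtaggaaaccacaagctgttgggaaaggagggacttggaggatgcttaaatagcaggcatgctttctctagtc
Fos: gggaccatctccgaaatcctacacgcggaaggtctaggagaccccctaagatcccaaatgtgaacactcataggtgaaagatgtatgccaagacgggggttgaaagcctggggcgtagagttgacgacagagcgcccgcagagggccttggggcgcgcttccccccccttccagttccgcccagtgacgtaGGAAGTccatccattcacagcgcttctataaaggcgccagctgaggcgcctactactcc
Ctsc: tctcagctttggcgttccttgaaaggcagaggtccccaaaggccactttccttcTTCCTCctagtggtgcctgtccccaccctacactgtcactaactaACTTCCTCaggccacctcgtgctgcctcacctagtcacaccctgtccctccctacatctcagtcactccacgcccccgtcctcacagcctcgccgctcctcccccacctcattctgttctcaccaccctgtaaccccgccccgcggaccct
Cst3: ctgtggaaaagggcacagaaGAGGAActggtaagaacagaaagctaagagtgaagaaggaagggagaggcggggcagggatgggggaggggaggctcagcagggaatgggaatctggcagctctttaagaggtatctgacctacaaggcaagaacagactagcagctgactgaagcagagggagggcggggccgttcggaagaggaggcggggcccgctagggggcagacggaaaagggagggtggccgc
Ctsd: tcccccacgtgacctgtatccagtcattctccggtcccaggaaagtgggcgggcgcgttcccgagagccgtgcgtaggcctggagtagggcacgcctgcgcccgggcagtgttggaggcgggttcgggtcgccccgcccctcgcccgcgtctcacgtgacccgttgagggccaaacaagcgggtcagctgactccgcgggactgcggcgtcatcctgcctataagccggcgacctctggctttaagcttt
P2ry12: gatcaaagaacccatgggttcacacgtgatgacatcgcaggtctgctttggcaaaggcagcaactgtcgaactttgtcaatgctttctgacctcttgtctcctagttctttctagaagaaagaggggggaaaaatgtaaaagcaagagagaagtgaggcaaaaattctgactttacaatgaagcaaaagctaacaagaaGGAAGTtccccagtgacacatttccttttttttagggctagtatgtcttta

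A match stood in the windows of 5 of these 6 genes, on both sides of the comparison, and not in that of Ctsd. Of the 22 genes with the largest fold changes or CPM differences in each direction, 15 higher genes matched 17 windows by symbol and 18 lower genes matched 24. GAGGAA or GGAAGT stood in 70.6% of the windows of higher genes, 62.5% of those of lower genes and 36.7% of all 32851 windows of this length. TGCTGA, a half-site of MAF factors, stood in 23.5, 25 and 16.1%, and TGACTCA, the AP-1 site, in 0 of 17, 0 of 24 and 4.46% (both strands, overlaps between motifs kept). A match is a description of letters and not a bound site.

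The counts of the gene lists that follow stand beside 2.79% higher and 1.41% lower among all genes tested, and their medians beside -0.03. Scavenger and lectin receptors take up modified lipids, haemoglobin complexes and glycans. Of 28 tested (32 listed), 20 were higher, 1 was lower and 7 were not called, with a median log2 fold change of 8.996. Cd36, a receptor for oxidised lipids, was at 405, 488, 824 and 667 CPM in pvMΦ and 0.114, 0.363, 0.625, 5.74 and 2.63 in microglia (9.64 ± 0.85). Msr1, the macrophage scavenger receptor, was at 546, 450.3, 247 and 397 against 0.285, 0.848, 0.104, 1.55 and 0.686 CPM (9.61 ± 0.73). The pvMΦ libraries were all above the microglia libraries in both. Siglech was the lower member, and Cd68, a lysosomal glycoprotein of macrophages, was not called (1881 ± 298 against 1608 ± 269 CPM, adjusted p = 0.46). Of the Ms4a family, 13 genes were listed and 6 passed the filter on low counts, and the 6 were higher, with Ms4a6b at 1005 ± 213 against 287 ± 62.4 CPM and Ms4a4a at 504 ± 153 against 0.266 ± 0.12.

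Receptors for dying cells divided. Of 21 efferocytosis genes tested (27 listed), 4 were higher, 3 lower and 14 not called (median -0.77). Higher were Timd4, Axl, Gas6 and Stab1, where Gas6 encodes the ligand that bridges Axl to phosphatidylserine. Gas6 was at 1315, 1002, 1297 and 898 CPM against 80.2, 12.7, 152, 91.7 and 173 (3.60 ± 0.63, adjusted p = 0.011). Axl, a receptor kinase, was at 171, 143, 73.9 and 599.5 against 0.171, 0.242, 1.51, 10.3 and 33.9 CPM (6.87 ± 0.96), with the S276 libraries the highest in each group. Lower were Mertk, a receptor kinase related to Axl, Trem2, a lipid-sensing receptor, and Itgb5, an integrin chain (726 ± 299 against 2471 ± 801 CPM). Without pvMΦ library 3, 5 members were lower, and without pvMΦ library 4 Itgb5 lost its call (adjusted p = 0.055, edgeR).

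The chains of class II MHC, which present peptides to CD4 T cells, were higher in pvMΦ. Of 13 class II genes tested (15 listed), 5 were higher, 1 was lower and 7 were not called (median 0.22). Cd74, the invariant chain, was at 6016, 11527, 4785 and 7496 CPM against 50.9, 12.6, 7.76, 40.6 and 55.5 (8.04 ± 0.70, adjusted p = 1.9e-04). The α chain gene H2-Aa was at 2627, 4222, 2344 and 2110.5 against 0.514, 1.21, 19.6, 2.84 and 3.31 CPM (8.99 ± 1.08), and its partner β chain gene H2-Ab1 at 3237, 5544, 2589 and 2707 against 8.45, 62.1, 15.4, 22.7 and 20.6 (7.08 ± 0.63). Library 2 was the highest of the pvMΦ in all 3. Cd40, a co-stimulatory receptor, had 2 counts in microglia (ratio 1009, 279 to 8339) and lost its call without microglia library 5 or pvMΦ library 4 (highest adjusted p = 0.1). The peptide-loading genes H2-DMa (328 ± 88.2 against 444 ± 109 CPM) and H2-DMb1 (209.9 ± 68.4 against 179 ± 68.9) and the co-stimulatory Cd86 (512 ± 105 against 552 ± 101.5) did not pass the test. Ctss, the cathepsin that trims the invariant chain, was the lower member, at 7649.9 ± 1290.3 against 16080.0 ± 3785 CPM (-1.09 ± 0.13, adjusted p = 0.0013). On class I, 2 of 19 genes were higher (2.79% of all genes) and 17 were not called (median 0.52), with H2-D1, a heavy chain, at 2292, 2262, 2953 and 2596 against 1021, 725, 848, 834 and 665 CPM.

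Lysosomal genes differed in both directions, with 4 higher, 7 lower and 24 not called of 35 tested (37 listed, median 0.05). Higher were Ctsb and Ctsc, cysteine proteases of the lysosome, the tetraspanin gene Cd63 and the sialidase gene Neu1. Ctsb was at 14042, 12909, 15425 and 10734 CPM against 6009, 3865, 5119, 5745 and 4996 (1.39 ± 0.16), and Ctsc at 6554, 6092, 5752 and 6767 against 1850.1, 1290.0, 1258, 1325 and 1673 (2.14 ± 0.15). Lower were, among others, Ctsd, Ctsl, Ctss, Ctsz, Lgmn and Laptm5. Ctsd, the aspartic protease, was at 6490.2, 5861, 4973 and 4819.8 against 19926, 13836, 16457, 17735 and 14884 CPM (-1.56 ± 0.15, adjusted p = 3.9e-04). Ctsb, Ctsc and Ctsd did not overlap between the groups, a condition of the rule by CPM difference that named them. Grn, Psap and Hexa were not called, with Hexa, a lysosomal hydrolase gene, at 2379 ± 683 against 2064 ± 426 CPM.

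Among 22 genes of lipid transport and efflux tested (30 listed), 7 were higher and 15 not called (median 1.40). Besides Apoe, Cd36 and Msr1 these included Pltp, the phospholipid transfer protein, at 479, 612, 586 and 534 CPM against 0.0571, 0.605, 0.469, 5.99 and 5.88 (9.52 ± 0.96), and Pla2g7, a lipoprotein-associated phospholipase, at 1962, 1199, 1331 and 1051 against 0.285, 9.93, 0.417, 6.39 and 5.14 (8.47 ± 1.10). The pvMΦ libraries were above all microglia libraries in both. Ch25h, which makes 25-hydroxycholesterol, lost its call without 7 of the 9 libraries in turn, all but microglia 4 and pvMΦ 2 (highest adjusted p = 0.08, edgeR). Of 21 genes of cholesterol synthesis (23 listed, median 1.70), edgeR and limma called 0, while 7 were higher at an unadjusted p under 0.05 and DESeq2 called 6 higher.

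Complement genes differed widely in their fold changes, with 6 of 15 tested (23 listed) higher, 1 lower and 8 not called (median 1.16). C1qa, which starts the classical pathway with C1qb and C1qc, was at 7874 ± 1521 against 9180.5 ± 2249.8 CPM, a log2 fold change of -0.26 ± 0.10 (adjusted p = 0.27), and none of the 3 was called. C4b, the fourth component, was at 256, 202, 300.0 and 260.0 against 0, 0, 0.0521, 0.349 and 0.914 CPM (11.09 ± 0.99), and Cfp, properdin, at 468 ± 197 against 1.46 ± 1.37. Without pvMΦ library 4, 3 complement genes were higher. Cfb lost its call without each of the 9 libraries in turn (highest adjusted p = 0.12), and C2 and Cd55 without pvMΦ library 4 (adjusted p = 0.051 and 0.072, edgeR).

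**Figure D4:**
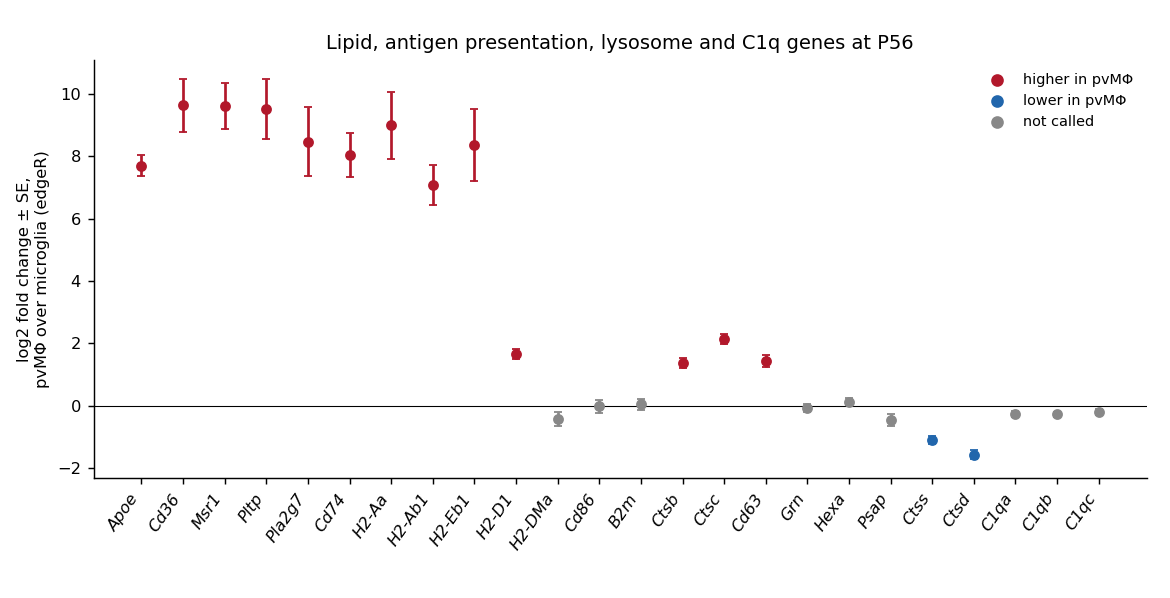
Log2 fold changes of pvMΦ over microglia with their SE for genes of lipid handling, antigen presentation, lysosome and the C1q complex (horizontal axis, genes), red higher, blue lower, grey not called. Cd74 and H2-Ab1 lie at 8.04 and 7.08, Ctsb and Ctsc at 1.39 and 2.14, and Ctsd at -1.56.

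Secreted signals were higher in 16 of 32 genes tested (40 listed) and not called in 16 (median 3.09). Higher were the chemokine genes Ccl2, Ccl3, Ccl4, Ccl7, Ccl8, Ccl12, Ccl24, Cxcl1, Cxcl2, Cxcl16 and Pf4, with Il1b, Il10, Osm, Igf1 and Bmp2. Cxcl2, a neutrophil attractant, was at 578, 409, 314 and 465 CPM against 0.171, 0.484, 0.208, 1.7 and 0.8 (9.96 ± 0.63). Ccl6 and Ccl9 were not called (Ccl9 352 ± 81.6 against 357 ± 102 CPM). Of 28 chemokine and cytokine receptors tested (31 listed), 4 were higher, 4 lower and 20 not called (median -0.22). Ccr1, a chemokine receptor, was at 381, 496, 693 and 327 against 0.285, 4.48, 12.3, 20.7 and 14.51 CPM (5.95 ± 0.97), and Cx3cr1, of which 1 allele carries the reporter, at 526, 631, 835 and 1484 against 3728, 3292, 2101, 3595 and 4114 (-1.90 ± 0.24). In Cx3cr1 pvMΦ library 4 came closest to microglia, without overlap. The higher receptors numbered 2 without microglia library 3, microglia library 5 or pvMΦ library 4, and the lower ones 2 without microglia library 5 or pvMΦ library 1, 2 or 4. Cxcr4, the receptor for Cxcl12, lost its call without microglia library 4 or 5 or pvMΦ library 4 (highest adjusted p = 0.087, edgeR).

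Interferon-inducible genes were higher in 8 of 32 tested (38 listed) and not called in 24 (median 3.53), while 22 were higher at an unadjusted p under 0.05. The 8 were Oasl1, Oasl2, Zbp1, Ifi27l2a, Ifi203, Ifi207, Ifi211 and Bst2. Ifi207, a DNA-binding protein of the Ifi200 family, was at 260.2, 325, 406 and 631 CPM against 2.45, 0.121, 0.0521, 3.14 and 7.14 (8.05 ± 1.03). Without pvMΦ library 4, 5 were higher, and Zbp1, a sensor of Z-form nucleic acid, lost its call without each of the 9 libraries in turn (highest adjusted p = 0.11). Ly6e was not called (2942 ± 495 against 2596 ± 306 CPM).

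Iron and haem handling had 8 of 19 genes tested (25 listed) higher, 1 lower and 10 not called (median 1.17). Blvrb, a biliverdin reductase, was at 511 ± 181 against 62.7 ± 33.1 CPM, and Cp, the ferroxidase ceruloplasmin, at 425 ± 159 against 1.22 ± 1.85. Hmox1, haem oxygenase 1, was at 199.7, 96.1, 91.7 and 357 against 18.7, 22.8, 40.4, 45.6 and 70.8 CPM and lost its call without pvMΦ library 4 (adjusted p = 0.088, edgeR). Slc46a1, a haem and folate transporter, was the lower member and lost its call without pvMΦ library 4 as well (adjusted p = 0.061).

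Transcription factors of macrophage identity were higher in 9 of 32 tested (38 listed), lower in 2 and not called in 21 (median 1.28). Sall1, the factor of microglial identity, was at 14.1, 52.8, 13.3 and 55.9 CPM in pvMΦ against 371, 202, 361, 465 and 479 (-3.35 ± 0.50, adjusted p = 0.004). The higher ones were Cebpb, Egr1, Klf2, Klf4, Klf6, Nr4a1, Nr4a2, Atf3 and Ahr. Of these, Egr1, Klf2, Klf4, Klf6, Nr4a1, Nr4a2 and Atf3 stood also on the list of immediate early and dissociation genes, which respond to the handling of cells. Of these 35 genes, all tested, 25 were higher and 10 not called (median 2.65). Fos, a subunit of AP-1, was at 8300.3, 8200.3, 9093 and 3931 CPM against 814, 999, 1716, 404 and 606 (2.93 ± 0.23, adjusted p = 1.0e-04), and Atf3, a stress-induced factor, at 3293, 3520.1, 3143 and 2526 against 609, 242, 315, 176 and 302 (3.23 ± 0.29). pvMΦ library 4 was the lowest of its group in both, without overlap with microglia, which for Fos was a condition of the naming by CPM difference. The 35 genes summed to 33540 to 51525 CPM in pvMΦ, 5879 to 10322 in microglia and 51605 to 74180 in mMΦ, and within batch S232 18 of them were higher. The part of cell isolation in the differences of cytokine and transcription factor genes was not tested. Ahr and Nr4a2 lost their calls without pvMΦ library 4 (adjusted p = 0.074 and 0.11, edgeR).

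**Figure D5:**
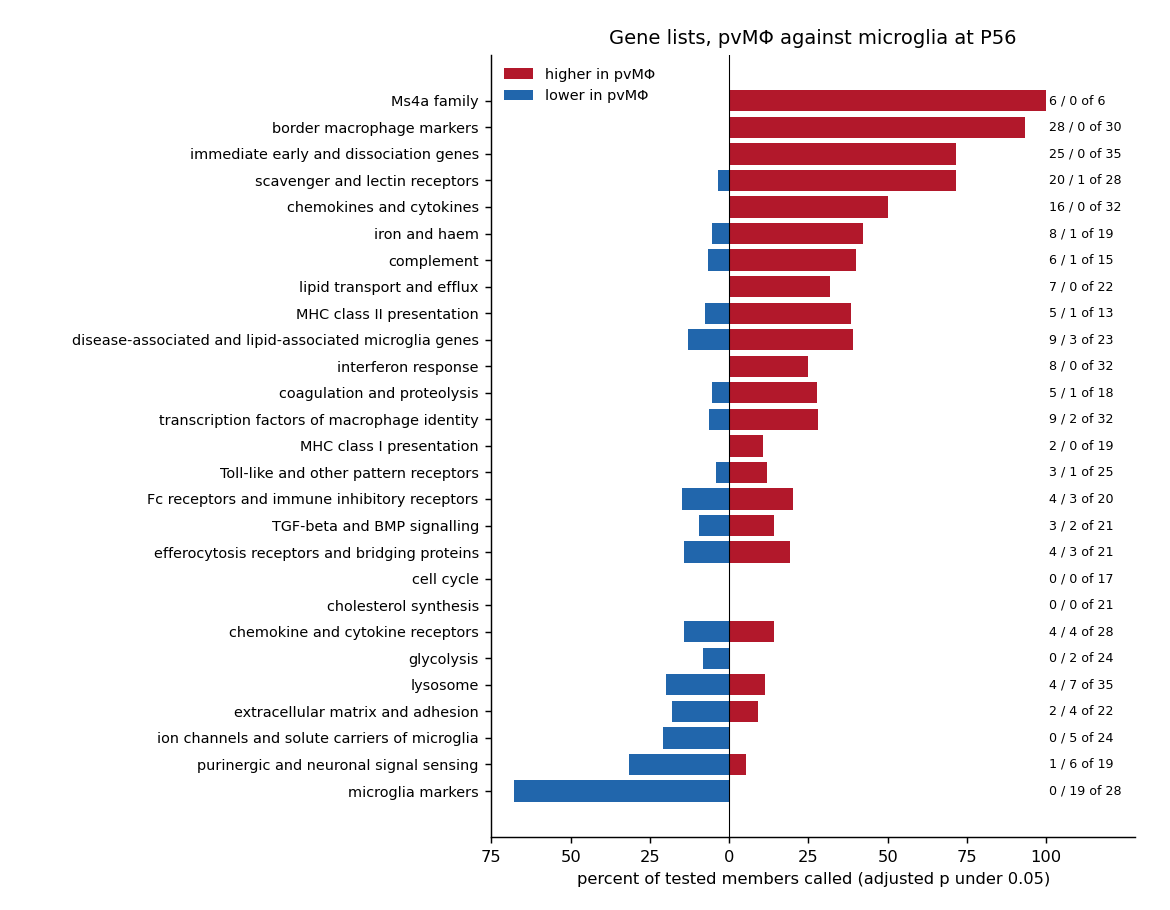
Percent of the tested members of gene lists that were higher (red, right) or lower (blue, left) in pvMΦ, with counts beside the bars. Among all genes tested 2.79% were higher and 1.41% lower. The Ms4a family, border markers, immediate early genes and scavenger receptors have the largest higher shares (6 of 6, 28 of 30, 25 of 35 and 20 of 28), and microglia markers the largest lower share (19 of 28).

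On the microglial side, 4 of the 12 genes with the largest fold changes had no count in any pvMΦ library. Ctnnal1, a catenin-like gene, was at 28.1, 38.6, 60.2, 51 and 28.6 CPM in microglia and at least 1003-fold lower in pvMΦ (edgeR, adjusted p = 0.0048). The zinc finger gene Zfp951 was at 43.4, 75.4, 27.2, 7.74 and 17.4 and at least 681-fold lower (adjusted p = 0.0087), and both kept their calls without each library in turn. Within batch S232 Ctnnal1 lost its call, and with the replicate number as a block Ctnnal1 and Zfp951 did. Gsg1 (at least 435-fold lower, adjusted p = 0.023) lost its call without microglia library 2, 3, 4 or 5 or pvMΦ library 4 (highest adjusted p = 0.068). Tmigd3 (at least 104-fold lower, adjusted p = 0.042) passed the filter on low counts in 5 of the 9 fits that left out a library, those without microglia library 5 or a pvMΦ library, and lost its call in all 5 (highest adjusted p = 0.11). The zinc transporter gene Slc39a12 was at 55.7, 110.4, 35.3, 34.9 and 13.4 CPM against 1 count in pvMΦ, a ratio of 3019 (542 to 119289), and kept its call. Dcun1d3, Zscan18, Ttc30a1, Lca5l, Ppm1f, Il7r and Arhgap27 completed the 12, and each lost its call without some library. Il7r, the interleukin 7 receptor, was at 16.4, 2.06, 50.8, 75.2 and 74.5 CPM in microglia against 0.109, 0.494, 0 and 1.42, and lost its call without any library but microglia 2 (highest adjusted p = 0.13). The phosphatase gene Ppm1f was at 24.5, 21.2, 0.208, 55.7 and 61.4 CPM in microglia, so library 3 was close to pvMΦ, where it ran from 0.0543 to 0.133, and it lost its call without each of the 4 pvMΦ libraries in turn (highest adjusted p = 0.089). It passed the filter on low counts in 5 of the 9 fits that left out a library, kept its call without microglia library 3, and was not tested without microglia library 1, 2, 4 or 5.

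By difference in CPM, the lower genes included Cst3, Ctsd, P2ry12, Ctss, Sparc, Selplg, Tmem119, Gpr34 and Olfml3, and the 10 genes with the largest difference all kept their calls without each library in turn. Cst3, which encodes the protease inhibitor cystatin C, was at 21384, 27816, 18498 and 14437 CPM against 82147, 119867, 94157, 47310.0 and 44185 (-1.94 ± 0.17). The S276 libraries of microglia were the lowest of their group and stood above every pvMΦ library, as the rule of no overlap asks. Selplg, a ligand of P-selectin, was at 1035, 1899.6, 413 and 1371 against 10310.3, 6906, 6461, 8711 and 8982 CPM (-2.73 ± 0.41), with pvMΦ library 3 the lowest, as in Sparc and P2ry12.

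Sensors of purines and neuronal signals were lower in 6 of 19 tested (29 listed), higher in 1 and not called in 12 (median -1.004). Gpr34, a lysophosphatidylserine receptor, was at 1258 ± 303 against 5857 ± 1136 CPM, and the ATP-gated channel gene P2rx4 was the higher one at 396 ± 77.6 against 109.9 ± 18.8. Of 24 channels and solute carriers tested (26 listed), 5 were lower and 19 not called (median -1.43), including the fructose transporter gene Slc2a5 at 104, 226, 67.4 and 254 against 1974, 1208, 1180.0, 1585 and 1688 CPM. Without pvMΦ library 4, 3 of them were lower. In glycolysis 2 of 24 genes were lower and 22 not called (median -0.06), and without microglia library 1, 1 gene of each of these lists was higher. Ldhb, a lactate dehydrogenase, was at 154 ± 75.9 against 708 ± 107 CPM, and Ldha did not pass the test (267 ± 82.2 against 266 ± 36.9).

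In TGF-beta and BMP signalling, which maintains microglial identity, 3 of 21 genes tested (31 listed) were higher, 2 lower and 16 not called (median -0.49). The receptor gene Tgfbr1 was at 175, 283, 44.6 and 618 CPM against 1664, 1258, 1148, 2220.4 and 2669.9 (-2.64 ± 0.49) and lost its call without pvMΦ library 1 (adjusted p = 0.064, edgeR). The higher genes numbered 1 without microglia library 4 or 5 or pvMΦ library 1 or 4, and the lower ones 0 or 1 without any library but microglia 2 and pvMΦ 3. Of 20 Fc and inhibitory receptors tested (26 listed), 4 were higher, 3 lower and 13 not called (median -0.09). Fcgrt, the neonatal Fc receptor that recycles immunoglobulin, was at 2258, 2092, 2500.2 and 1251 against 310.4, 331, 221, 247 and 259 CPM (2.83 ± 0.19), and the checkpoint gene Vsir at 605, 866, 503 and 1145 against 3008, 2389, 2678, 3552 and 3613 (-1.87 ± 0.19).

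Of 22 matrix and adhesion genes tested (33 listed), 2 were higher, 4 lower and 16 not called (median -0.58), against 2.79% higher and 1.41% lower of all genes. Vcam1, a vascular adhesion molecule, was at 642 ± 304 against 9.01 ± 6.21 CPM, and Ecm1, a matrix protein, lost its call without microglia library 1, 2 or 3 or pvMΦ library 1 or 4 (highest adjusted p = 0.075, edgeR). Of 23 genes known from disease-associated microglia (25 listed), 9 were higher, 3 lower and 11 not called (median 2.38), with Gpx3, a secreted glutathione peroxidase, at 592 ± 186 against 1.32 ± 1.07 CPM, and Cybb, a subunit of the phagocyte oxidase, at 617 ± 342 against 4.19 ± 5.67. Of 18 genes of coagulation and proteolysis (31 listed), 5 were higher, 1 lower and 12 not called (median 0.17), and Thbd, thrombomodulin, was higher (112 ± 71.3 against 0.228 ± 0.355 CPM). Without pvMΦ library 3, 2 coagulation genes were lower. Toll-like and other pattern receptors were higher in 3 of 25 (30 listed, against 2.79% of all genes), lower in 1 and not called in 21 (median -0.02), with 2 lower without pvMΦ library 4. Of 17 cell cycle genes tested (24 listed, median 0.85), edgeR, DESeq2 and limma called 0, and 0 had an unadjusted p under 0.05.

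Few markers of other cells that a sort could hold passed the filter on low counts. The 20 genes of fibroblasts and leptomeningeal cells summed to 134 to 516 CPM in pvMΦ, 3.03 to 14.6 in microglia and 742 to 1789 in mMΦ. Col6a1 was at 0 in pvMΦ, while Aldh1a2 (15.3 ± 15.2 against 0.0242 ± 0.0542 CPM), Slc6a13 (10.1 ± 9.63 against 0.0114 ± 0.0255), Dcn (8.36 ± 9.02 against 0.17 ± 0.379) and Igfbp2 (5.76 ± 4.54 against 0.0114 ± 0.0255) had mean levels above those of microglia, with a pvMΦ library at or near 0 in each. Of 4 tested (median log2 fold change 5.86), Ptgds, a prostaglandin D synthase, was higher (372, 440.1, 482 and 82.6 against 0.628, 0, 9.17, 0.349 and 0 CPM), and lost its call without pvMΦ library 4 (adjusted p = 0.072, edgeR). The 18 endothelial genes summed to 100.4 to 189 against 25.3 to 185 CPM, with Sox17 at 0 in pvMΦ. Egfl7, a secreted vascular protein, was the higher one of 4 tested, and lost its call without pvMΦ library 4 (adjusted p = 0.068, edgeR). Pecam1 (4.39 ± 8.43 against 29 ± 27 CPM), Itm2a (7.04 ± 12.7 against 0.963 ± 1.45) and Slc2a1 (56.6 ± 41.9 against 54.6 ± 32) were not called. Of 12 monocyte markers, Ly6c2 and Chil3 were at 0 in pvMΦ and in microglia. Ccr2, the chemokine receptor of classical monocytes, was at 73.2 ± 14.7 CPM in pvMΦ (lowest 59) against 4.12 ± 5.06 in microglia (highest 12.3), so the groups did not overlap, and it did not pass the test (log2 fold change 4.17 ± 1.31, SE, adjusted p = 0.15, edgeR). The sum of 784 to 1749 against 37.3 to 72.2 CPM came mainly from Nr4a1 (1099 ± 409 against 44.2 ± 24.2 CPM). Without microglia library 1, 2 monocyte genes were higher. Of 15 T and NK cell genes 11 were at 0 in pvMΦ, Cd3e, Cd8a and Trac among them, while Cd4, a co-receptor also found on macrophages, was higher (31.3, 88, 167 and 139 against 0.114 to 0.686 CPM) and Il7r lower, in sums of 31.6 to 167 against 16.5 to 75.4 CPM.

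The 18 oligodendrocyte genes summed to 4998 to 6996 CPM in pvMΦ and 2595 to 3384 in microglia, mainly from Trf, transferrin, which was higher at 6716, 6658, 6653 and 4721 against 3281, 2489, 2505, 2524 and 3029.8. Mog, Ermn, Opalin, Olig1, Olig2 and Sox10 were at 0 in pvMΦ. Neutrophil genes summed to 72.7 to 235 against 69.5 to 291 CPM, with Mmp9 higher of 2 tested and Retnlg, Camp, Elane, Ly6g, Cxcr2 and Mmp8 at 0 in pvMΦ. Astrocyte genes summed to 139 to 237 against 85.1 to 458 CPM, where the microglia sum came mainly from Slc1a3 (30.6 ± 10.4 against 258 ± 132 CPM), a glutamate transporter gene, which was lower. Of 7 tested (median log2 fold change 2.73), 1 was higher, and 0 in edgeR without microglia library 1, 3, 4 or 5 or pvMΦ library 1 or 2. Aqp4 was at 0 in pvMΦ, while mean levels were above those of microglia in Gfap (10.8 ± 17.6 against 0.0599 ± 0.134 CPM), Gjb6 (14.4 ± 27 against 0.0104 ± 0.0233), Slc1a2 (18.3 ± 27.9 against 0.242 ± 0.479), Gja1 (18.2 ± 18.6 against 0.594 ± 0.683) and Aldoc (16.4 ± 15.3 against 2.72 ± 4.71). The pvMΦ libraries differed widely in these 5 genes, of which Slc1a2, Gja1 and Aldoc were tested and not called. Dendritic cell genes summed to 1426 to 2456 against 3372 to 5219 CPM. Of 9 tested, Cd209a and Bst2 were higher and Siglech and Fscn1 lower, and Ly6d was at 0. The microglia sum came mainly from Siglech (751 ± 215 against 3687 ± 914 CPM), also a microglia marker. Of uncalled members, Zbtb46 had the higher mean in pvMΦ (22.4 ± 27.3 against 4.96 ± 5.15 CPM). Batf3 (11.1 ± 12.5 against 24.6 ± 8.86) and Cox6a2 (2.23 ± 3.37 against 3.77 ± 4.6) had the lower. Flt3, not tested, was at 17 ± 33.1 against 0.526 ± 1.18. Pericyte and smooth muscle genes summed to 3.77 to 28.1 against 1.14 to 14.05 CPM, with Pdgfrb, Tagln and Myh11 at 0 in pvMΦ. Vtn, the member with the highest mean in pvMΦ, was at 14.6 ± 10.3 against 0.488 ± 0.629 CPM. It was not called (log2 fold change 7.38 ± 2.35, SE, adjusted p = 0.15, edgeR), and neither were Acta2 (-0.84 ± 1.15) and Cspg4 (-0.12 ± 1.19). B cell genes summed to 408 to 695 against 288 to 933 CPM (Cd79a and Igkc at 0 among 7 of 12). Neuronal genes summed to 984 to 1673 against 1075 to 2059 CPM, mainly from Calm2, a calmodulin gene that many cells express (1264 ± 261 against 1604 ± 431). The 14 tested had a median log2 fold change of 2.84, and of 6 with an unadjusted p under 0.05 5 had the higher level in pvMΦ. Meg3, a long noncoding RNA, was at 24.1 ± 22.9 CPM in pvMΦ against 0.31 ± 0.351 (adjusted p = 0.054, edgeR), Snap25, a synaptic protein gene, at 33 ± 24 against 6.98 ± 7.19, Stmn2 at 11.9 ± 10.5 against 0.519 ± 0.957 and Syt1 at 10.3 ± 7.28 against 0.192 ± 0.374. Of 3 pericyte, 14 neuronal and 3 B cell genes tested edgeR called 0, where 1, 6 and 0 had an unadjusted p under 0.05 and DESeq2 called 1, 6 and 0 and limma 0, 0 and 0. Erythroid genes summed to 0.165 to 46.4 against 13.2 to 60.6 CPM with 1 tested and not called, and ependymal and choroid plexus genes to 0.326 to 28.3 against 0.104 to 0.848, with none tested. The part of such cells in the differences was not tested.

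Against meningeal macrophages of the same age, the border population of the brain's outer coverings, few genes of pvMΦ passed the edgeR test. Of 12867 genes tested with edgeR over the 12 libraries of P56, 11 (0.0855%) were higher and 0 lower in pvMΦ, with 1028 (7.99%) at an unadjusted p under 0.05 in either direction. DESeq2 called 199 higher and 248 lower, and limma 12 and 32. These fits share the pvMΦ and microglia libraries with the comparison above, so the values are set side by side. Of the 309 genes higher than in microglia, edgeR called 0 against mMΦ, and 192 had the higher mean CPM in mMΦ. Of the 156 lower genes, 9 were higher than in mMΦ, and 30 had the higher mean CPM in mMΦ. Genes not called are not shown to have equal levels. Adgrg1, an adhesion receptor, was at 29.4, 89, 93.1 and 257 CPM in pvMΦ, 0.125, 0 and 0.222 in mMΦ and 475, 518, 479, 1297 and 1598 in microglia. Its log2 fold change was 9.21 ± 0.74 to mMΦ (adjusted p = 0.00073) and -2.67 ± 0.33 to microglia. Hspb3, a small heat shock protein gene, was at 10.6, 17.8, 20.5 and 6.81 CPM in pvMΦ and had no count in mMΦ, at least 264-fold higher, and stood at 40.6 ± 19.9 in microglia. Angptl7, a secreted angiopoietin-like gene, was at 23.6, 24.7, 35.9 and 20.5 CPM in pvMΦ, had 1 count in mMΦ and stood at 52.8, 23.7, 26.6, 30.6 and 25.2 in microglia, where it was not called (-0.31 ± 0.62, adjusted p = 0.92).

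Sparc, Tmem119, P2ry12, Siglech, Lpcat2, Cd9, Mylip and Olfml3 were the other 8 genes higher than in mMΦ. Their log2 fold changes to mMΦ were 3.07 for Sparc, 2.71 for Tmem119 and 1.94 to 2.22 for the rest. All 8 were called lower than in microglia. Mylip, a ubiquitin ligase for lipoprotein receptors, was at 124 ± 15.1 CPM in pvMΦ, 27.4 ± 9.56 in mMΦ and 332 ± 68.4 in microglia. Within batch S232, and likewise without mMΦ library 3, 1 gene was higher than in mMΦ. Counts of higher genes were 2 without mMΦ library 1, 3 without mMΦ library 2, 6 without pvMΦ library 2 and 18 without pvMΦ library 3, and 4 genes were lower without pvMΦ library 4. Adgrg1 passed in all 7 fits that left out a library.

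The difference between pvMΦ and microglia at P56 was also set against that at P21. Of 13120 genes, edgeR and limma called 0 with a different log2 fold change at the 2 ages, with 801 (6.11%) at an unadjusted p under 0.05 in edgeR, and DESeq2 called 76 with a higher and 71 with a lower signed log2 fold change of pvMΦ over microglia at P56 than at P21. Without pvMΦ library 4 of P56, edgeR called 18 with a lower one. Cd74 was at 1947 ± 1588 CPM in pvMΦ and 105 ± 48.4 in microglia at P21, against 7456 ± 2932 and 33.5 ± 22 at P56 (difference of the log2 fold changes 3.49 ± 0.86, adjusted p = 0.64, edgeR). Ms4a7 was at 2152 ± 332 against 1.03 ± 0.953 CPM at P21, and Apoe at 54911 ± 21281 against 1278 ± 1000.1. P2ry12 was at 2237 ± 983 in pvMΦ and 13878 ± 1768 in microglia at P21. Genes not called are not shown to have equal differences at both ages.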

How the data were processed

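RNA of sorted microglia, pvMΦ and mMΦ was extracted, copied to cDNA with the SMARTer v4 low-input kit and tagmented with Nextera XT, per the labels' protocols. The authors deposited raw read counts per gene symbol for 45 libraries. The submitters' processing notes name bcl2fastq 2.18, STAR 2.7.8a and featureCounts 2.0.2. Genome build, annotation and strand were not given in the sources used here. The table holds 53546 symbols, of which 35253 had a count in some library.

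Groups, ages and batches were taken from the labels. edgeR 4.0.16 (R 4.3.3) was run with TMM scaling, a filter on low counts (filterByExpr, minimum count 10, minimum total 15), a batch term and robust quasi-likelihood tests, and p-values were adjusted by Benjamini-Hochberg over all genes tested, with a threshold of 0.05. The main comparison used its 9 libraries, that with mMΦ the 12 libraries of P56, and that with P21 the 18 libraries of both ages. CPM were scaled by TMM over all 45 libraries (17064 genes), so ratios of CPM can differ slightly from fitted fold changes. Floors are 3 counts over a group and counting intervals are 95% exact intervals. The scripts were tested on simulated data. Alternatives were DESeq2 1.42.0, limma 3.58.1 and the settings given at the end.

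Genes named are, per direction, the 12 with the largest fold change and the 10 with the largest CPM difference, called, with a mean of at least 5 CPM in the higher group and no overlap, leaving out unnamed gene models, pseudogenes, and mitochondrial, ribosomal and sex-chromosome marker genes. Further, up to 5 called and 3 uncalled members of each of 40 gene lists were named, and up to 8 genes per direction of the comparison with mMΦ. Other names are given without values or as members of a count of calls. The members, gene lists and tests were chosen with earlier results of these data known. Lists are described by counts and medians, to be read beside the shares and the median over all genes tested. Further uncalled or untested markers of astrocytes, neurons, fibroblasts, monocytes and dendritic cells were named after their values were seen. Promoter windows and their coordinates came from RefSeq (GRCm38.p6), matched by symbol. Some members of the lists are counted but not reported here by name.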

Additional observations from a re-analysis of the deposited data

Results flagged for a closer look

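In 94 groups of 4 or 5 libraries examined, 5 held a library far from the others of its group, and chance flags about 1 in 20 groups. In pvMΦ library 4, Arhgap27, a GTPase-activating protein lower in pvMΦ, was at 28.7 CPM, while the other 3 pvMΦ libraries were at 0.271, 0.604 and 0.0838. The summed oligodendrocyte genes, mainly Trf, were lowest in the same library, at 4998 CPM against 6892 to 6996 in the others. The summed pericyte and smooth muscle genes were lowest in pvMΦ library 3, at 3.77 CPM against 25.4 to 28.1. In microglia, H2-Ab1, the β chain of class II MHC, was at 62.1 CPM in library 2 and 8.45 to 22.7 in the others. Dcun1d3, which was lower in pvMΦ, reached 89.9 CPM in 1 microglia library, with 4.32 to 21.2 in the others.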

How the results depend on the processing

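For pvMΦ against microglia (309 higher, 156 lower), DESeq2's Wald test called 798 and 668, a fit of all 45 libraries 1098 and 718, and batch S232 alone 179 and 74. Leaving out each library in turn gave 199 to 281 higher and 91 to 146 lower. No setting turned the direction of any of the 136 called genes named by the rule. Of their calls, 95 were kept without each library in turn. With the replicate number as a block 47 were lost, within batch S232 43 and without pvMΦ library 4 34. Whether replicate numbers pair the libraries is not known. Deviations from the group mean of same-numbered pvMΦ and microglia libraries correlated at 0.032, 0.0344, 0.05 and 0.322. pvMΦ library 4 correlated best with microglia library 5 (0.379), of its own batch S276, and batch was not removed from the deviations. Within batch S232, pairs with different numbers lay between -0.0142 and 0.0939. Such few pairs cannot show whether libraries of the same number share a mouse. With the replicate number as a block, 168 genes were higher and 67 lower, in the comparison with mMΦ 1 was higher, and against P21 edgeR called 0, with 383 at an unadjusted p under 0.05. For pvMΦ against mMΦ (11 higher, 0 lower), DESeq2 called 199 and 248, limma 12 and 32, all 45 libraries 57 and 35, no filter on low counts 13 and 4, batch S232 alone 1 higher, and both groups alone without a batch term 0 (315 at an unadjusted p under 0.05). Leaving out each library gave 1 to 18 higher and 0 to 4 lower. For P56 against P21 (0 in edgeR), no filter gave 68 with a higher and 37 with a lower signed log2 fold change at P56, DESeq2 76 and 71, batch S232 alone 3 higher, all 45 libraries 6 and 3, and leaving out each library 0 to 18 lower and 0 higher. The causes were not tested. At depths of 9898257 counts or more, a gene with few counts in a group has wide counting intervals, as given beside its ratio.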

Other observations

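At P10, with 3 libraries of pvMΦ and 3 of microglia, several genes that set the adult populations apart can be followed as levels, without a test. Timd4 was at 56.3 ± 18 CPM in pvMΦ and 0.0142 ± 0.0245 in microglia, and Bmp2 at 99 ± 24.5 against 0.0283 ± 0.0491. Of class II MHC, Cd74 was at 292 ± 44.8 against 197 ± 21.4 CPM, and H2-Ab1 at 27.7 ± 30.1 against 19.9 ± 4.55, where the pvMΦ of P56 stood at 7456 ± 2932 and 3519 ± 1379. Adgrg1 was at 48.7 ± 12.7 in pvMΦ and 553 ± 87.4 in microglia at P10, against 117 ± 97.5 and 873 ± 535 at P56. P2ry12 was at 1101 ± 114 in pvMΦ at P10 and 1759 ± 721 at P56.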
